A study of Danio rerio with 12 samples.

Results

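The interferon response genes described here were mxa, mxb, mxc, isg15, rsad2, stat2, irf7 and irf9. A probe was taken as one of theirs when its platform annotation, updated through accession, symbol or older synonym, gave 1 of these names. These are the 8 genes with a named probe of a list of 10, and together they had 15 of the 43603 probes on the array. The rest of the list was not analysed here. Of the 8 genes, 7 had enough values to be tested, among 25266 features in all (14331 named genes and 10935 probes without a name). The eighth, mxb, is given by its values alone.

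The samples were whole larvae of wild-type AB zebrafish aged 21 days. From 6 days post fertilization they had spent 15 days in 1 of 3 waters: with silver nitrate (AgNO3, a soluble salt) at 0.01 mg/L, with silver nanoparticles (AgNPs) at 0.01 mg/L, or, as controls, in conditioned water with methylene blue and no silver. Each of 12 Agilent 2-colour arrays compared RNA of 1 exposed sample with RNA of 1 control sample, with 6 arrays per silver form, 3 of them with the exposed RNA in the dye Cy5 and 3 in Cy3. The sample codes were read as 6 control samples, each of which was used on 1 AgNO3 and 1 AgNPs array, so the 2 comparisons share their controls. The labels call the samples biological replicates without giving the number of tanks, and a p-value here reflects the variation among these samples, which may be shared within a tank.

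Interferons are secreted signals that cells release when they sense a virus or other microbe. In zebrafish, type I interferons bind paired receptors on neighbouring cells, receptor-bound kinases then activate STAT proteins, among them Stat2, and these join Irf9 into a complex that turns on a large set of antiviral genes. The products of mxa, mxb and mxc belong to the Mx family of large GTPases, which in mammals block viral particles inside the cell. Isg15 is a small ubiquitin-like protein that is attached to other proteins. Rsad2, called viperin in mammals, is a radical enzyme that makes a chain-terminating nucleotide. Irf7 is itself induced by interferon and drives further interferon production.

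The values were ratios of exposed over control RNA on what was taken as a log2 scale, so that 0 means equal signal and -1 means that the exposed sample gave the weaker signal by a factor of 2. The log base and the direction of the ratio are likely but not settled by the sources, and the dye-swapped arrays were taken as already turned the same way. Within a silver form, arrays of the same dye orientation correlated at a mean r of 0.0815 (AgNO3) and 0.0924 (AgNPs), whereas pairs of opposite orientation had a mean r of -0.0241 and -0.0215. These values do not show that the swapped arrays had been turned, so each direction given here depends on that assumption. Ratios hold no levels, so how strongly each gene was expressed, and whether defining markers of a tissue were present, could not be read. Array medians lay between -0.0093 and 0.015. Their interquartile ranges were narrowest on 4 AgNPs arrays, replicates 3 to 6, at 0.0946 to 0.116. AgNPs replicates 1 and 2 had ranges of 0.293 and 0.233, and the AgNO3 arrays had ranges between 0.216 and 0.342. The AgNPs means given here combine both kinds of array.

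None of the 7 tested interferon response genes passed the test in AgNO3, in AgNPs or in the difference between them (limma moderated test, Benjamini-Hochberg adjusted p under 0.05 over all features). Few features of any kind passed: 0.0119% of all features in AgNO3 (3 features), 0.0237% in AgNPs (6 features) and 0.0% in the difference. At an unadjusted p under 0.05, 3 of the 7 genes had lower values in AgNO3 (irf7, mxa and isg15), where 8.25% of all features had such a p. In AgNPs it was 1 of 7 (irf9, lower), against 4.24% of all features. In the difference it was 1 of 7 (isg15, lower in AgNO3), against 4.22%. Each SE, interval and p-value here rests on a spread per feature shared by both silver forms. The SDs of irf7, mxa and isg15 were 0.34, 0.47 and 0.52 in AgNO3 and 0.17, 0.15 and 0.25 in AgNPs. For rsad2 they were 0.06 and 1.19. Fitted on the AgNO3 arrays alone, irf7, mxa and isg15 each had an adjusted p of 0.822 by limma. The median fitted log2 ratio of the 7 genes was -0.16 in AgNO3 and -0.02 in AgNPs, beside medians over all features of -0.0056 and 0.0028. With the dye-swapped arrays turned, 1 of the 7 genes (irf9, lower) had an unadjusted limma p under 0.05 in AgNO3. None of irf7, mxa and isg15 then had such a p, which 10.5% of all features had. In AgNPs 1 of the 7 genes had such a p (mxc, lower), against 5.68% of all features. The AgNO3 median was then -0.01, and mxa, isg15 and irf7 stood at -0.12, -0.01 and -0.13 in AgNO3. The genes mxc, stat2 and irf9 changed sign there, to 0.10, 0.15 and -0.24. In whole larvae, fewer cells of a type and less RNA per cell cannot be told apart.

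**Figure D1:**
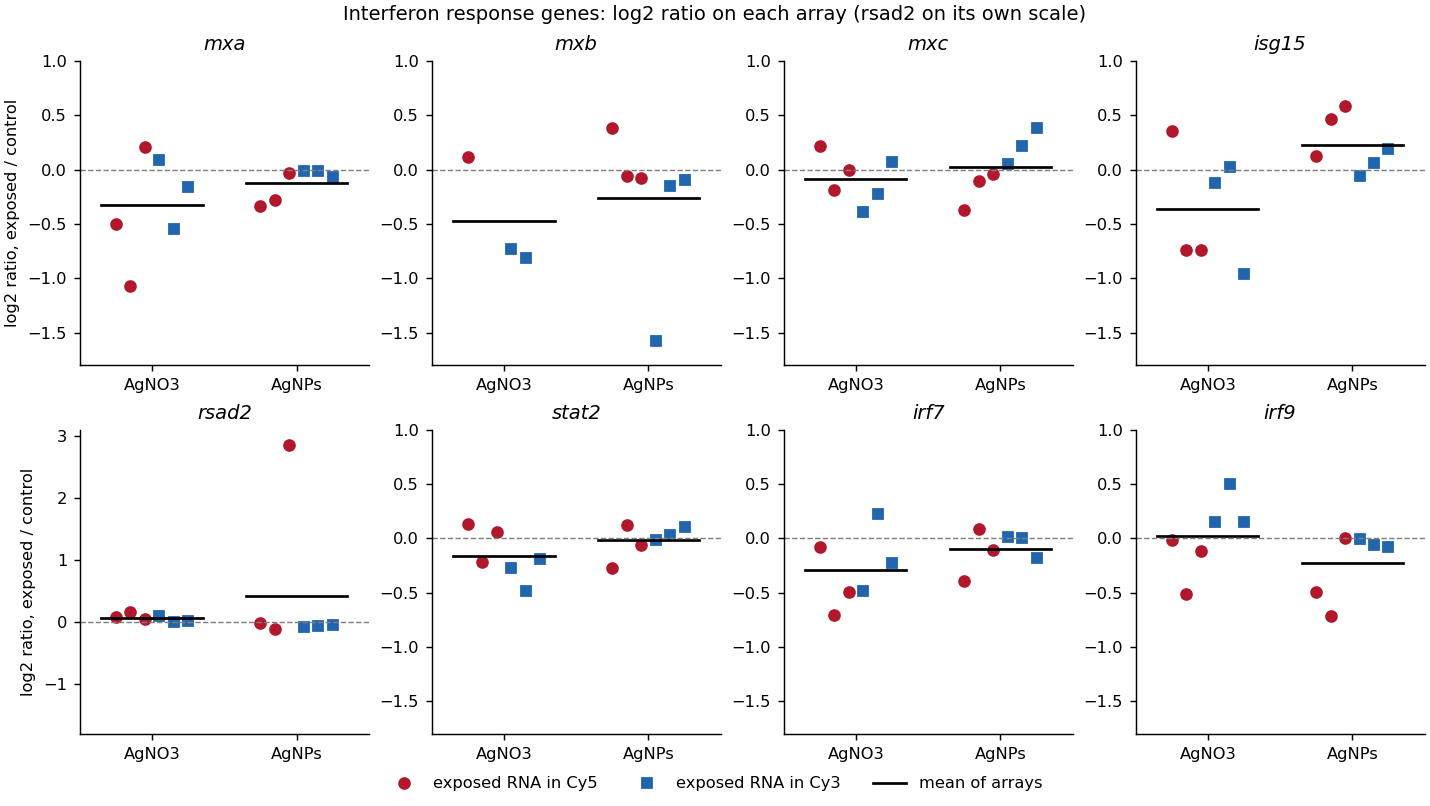
Log2 ratio of exposed over control RNA (vertical axis) of the 8 interferon response genes with a named probe, by group (horizontal axis). Each point is 1 array, red circles with the exposed RNA in Cy5 and blue squares with it in Cy3, and the black bar is the mean of the arrays. Most AgNO3 points of mxa, isg15 and irf7 lie below 0, and a single AgNPs point of rsad2 stands at 2.85.

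The Mx genes encode the best known effectors of the response. For mxa, the log2 ratio in AgNO3 ranged from -1.07 on replicate 2 to 0.21 on replicate 3, with a median of -0.33. In AgNPs it ranged from -0.33 on replicate 1 to -0.01 on replicate 5, with a median of -0.05. The groups overlapped: values were below 0 on 4 of 6 AgNO3 arrays and on 6 of 6 AgNPs arrays, but 4 of the AgNPs values were within 0.07 of 0. On AgNPs replicates 3, 4 and 5 the value came from 1 of the 3 probes. On replicate 5 it was the median of all features on the array. On replicate 4 it ranked 13722 from the top and 9571 from the bottom of 24221 features, so many shared it exactly. Whether such repeated values measure mxa is not known, so their sign carries little weight. The fitted log2 ratio of mxa was -0.33 in AgNO3 (SE 0.13, 95% interval -0.62 to -0.03), or 79.7% of the control signal, with an adjusted p of 0.570 by limma. Without AgNO3 replicate 2 it was -0.19. In AgNPs it was -0.12 (SE 0.13, interval -0.42 to 0.17). The means of the 3 mxa probes were all below 0 in both groups. The probe with the widest swings ran from -1.57 to 0.81 in AgNO3 and had values on only 2 AgNPs arrays, so the gene's mean rests on different probes on different arrays.

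The neighbouring gene mxb, which lies next to mxa in the order of protein-coding genes on chromosome 1 (RefSeq annotation, assembly GRCz12tu), had 1 probe, and that probe had values on 3 AgNO3 arrays. They were 0.12 on replicate 1, -0.72 on replicate 4 and -0.81 on replicate 5. In AgNPs its values were 0.39, -0.06, -0.07, -1.57, -0.15 and -0.09 on replicates 1 to 6, so that replicate 4 stood far below the others. Both groups held values on either side of 0. On AgNPs replicate 3 mxb ranked 19427 from the top and 4354 from the bottom of 24159 features, so many shared its value. By its ranks, the other mxb values except that of AgNPs replicate 1 were also shared, the -1.57 among them. Whether such repeated values measure mxb is not known.

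The log2 ratio of mxc ran from -0.39 to 0.22 in AgNO3, with a median of -0.10, and from -0.37 to 0.39 in AgNPs, with a median of 0.01. These ranges overlap almost entirely. Its fitted log2 ratio was -0.09 in AgNO3 (SE 0.10) and 0.02 in AgNPs (SE 0.10), both within 1 SE of 0. By dye orientation, its AgNO3 means were 0.01 (Cy5) and -0.18 (Cy3), and its AgNPs means -0.17 and 0.22. The 3 probes of mxc disagreed in sign, with AgNO3 log2 ratios of -0.03, -0.24 and 0.07. Mx genes are closely related in sequence, and how far a probe of one also takes up RNA of another is not known from these files, so the separate values of mxa, mxb and mxc are uncertain.

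The ubiquitin-like modifier gene isg15 was measured by 1 probe. Its AgNO3 log2 ratios were 0.36, -0.74, -0.74, -0.12, 0.03 and -0.96 on replicates 1 to 6. Its AgNPs values were 0.13, 0.47, 0.58, -0.06, 0.06 and 0.20. On 4 of 6 AgNO3 arrays the value was below 0 and on 5 of 6 AgNPs arrays above it. The AgNO3 values of replicates 1 and 5 lay within the AgNPs range. On AgNPs replicate 4 isg15 ranked 18608 from the top and 5234 from the bottom of 24221 features, so many shared its value. Its value on AgNPs replicate 5 was also shared, with ranks of 4412 and 19867 among 24373 features. The sign of such repeated values carries little weight. The fitted log2 ratio was -0.36 in AgNO3 (SE 0.16, interval -0.72 to -0.01, adjusted p = 0.600 by limma) and 0.23 in AgNPs (SE 0.16, interval -0.13 to 0.59). The difference AgNO3 minus AgNPs was -0.59 (SE 0.23, interval -1.10 to -0.09, unadjusted p = 0.0256, adjusted p = 0.858 by limma), and -0.17 with the dye-swapped arrays turned. Within each dye orientation, of 3 arrays, the AgNO3 mean was -0.37 with the exposed RNA in Cy5 and -0.35 with it in Cy3, and the AgNPs means were 0.39 and 0.07.

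The viperin gene rsad2 varied least in AgNO3 and held the most extreme value of all members in AgNPs. Its AgNO3 log2 ratios lay between -0.0017 and 0.17, with a median of 0.07. On AgNPs replicates 1 to 6 they were -0.01, -0.11, 2.85, -0.07, -0.06 and -0.05. Replicate 3 thus stood alone, at a ratio of 7.22, and ranked 13 from the top of 24159 features on its array, while the other 5 AgNPs arrays were all slightly below 0. On replicate 3 it also ranked 24138 from the bottom, so other features held exactly the same value. On AgNPs replicate 5 it ranked 18665 from the top and 5297 from the bottom of 24373 features, so many shared its value. The AgNO3 value of replicate 5 was the median of all features there. By its ranks, rsad2 shared its exact value with other features on each of the 12 arrays. On AgNO3 replicate 1, for example, it ranked 7174 from the top and 17152 from the bottom of 24414 features. How repeated values arose is not known. How far these ratios, and their small spread in AgNO3, measure rsad2 is therefore uncertain. The fitted AgNPs log2 ratio was 0.43 (SE 0.31, interval -0.27 to 1.12), and without replicate 3 it was -0.06. The mean of the other 5 arrays was -0.06 ± 0.04 (SD, n = 5). On that array isg15 was at 0.58, and mxa, mxb, mxc, stat2, irf7 and irf9 lay between -0.10 and 0.01. The gene next to rsad2 on chromosome 17 is cmpk2, which encodes a nucleotide kinase that is also induced by interferon. Chosen after its values were seen, cmpk2 had a log2 ratio of 0.02 on the same array. An mxc probe held the same value there, so whether it measures cmpk2 is not known.

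**Figure D2:**
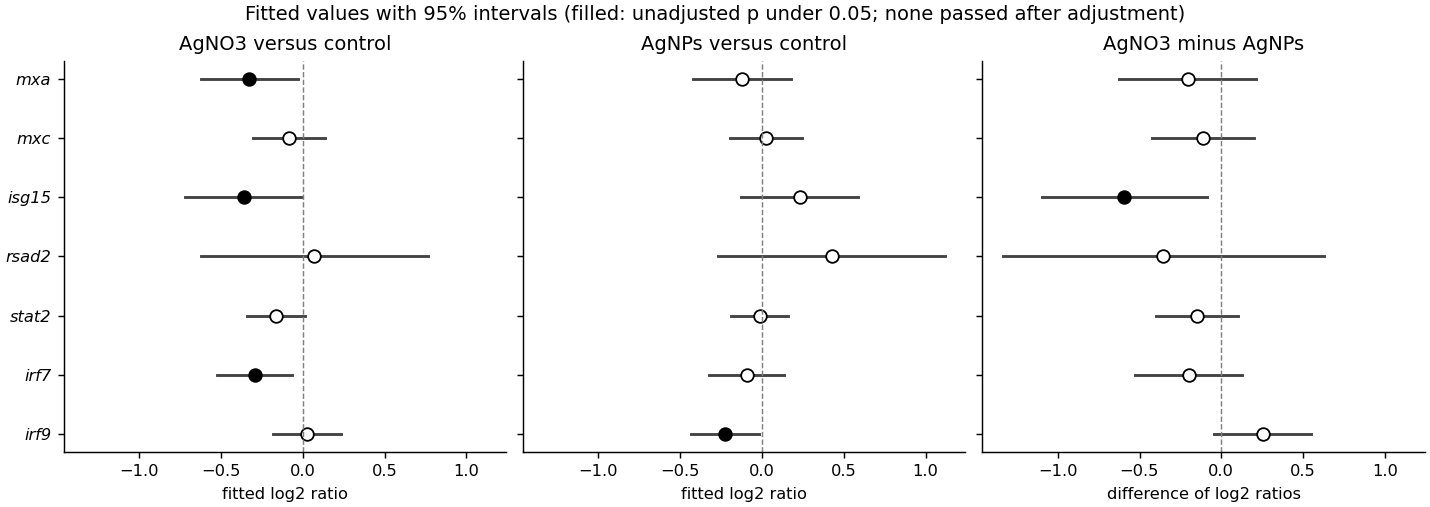
Fitted log2 ratios of the 7 tested interferon response genes (points) with 95% intervals (lines), for AgNO3 against control, AgNPs against control and the difference AgNO3 minus AgNPs. The horizontal axis is the log2 ratio or, at right, the difference of 2 log2 ratios. Filled points had an unadjusted p under 0.05 (mxa, isg15 and irf7 in AgNO3, irf9 in AgNPs, isg15 in the difference), and no gene passed after adjustment.

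The gene stat2 encodes a signal carrier between receptor and nucleus. Its log2 ratios ranged from -0.49 to 0.13 in AgNO3, with a median of -0.21, and from -0.28 to 0.12 in AgNPs, with a median of 0.01. Values were below 0 on 4 of 6 AgNO3 arrays and 3 of 6 AgNPs arrays, and the groups overlapped. By dye orientation, the AgNO3 means were -0.01 (Cy5) and -0.32 (Cy3), and the AgNPs means -0.07 and 0.04. The fitted log2 ratio was -0.16 in AgNO3 (SE 0.08, interval -0.34 to 0.01, adjusted p = 0.627 by limma; -0.10 without replicate 5) and -0.02 in AgNPs (SE 0.08). The mean of stat2 joined 2 probes that did not move alike. One, A_15_P185791, was below 0 on 6 of 6 AgNO3 arrays, from -1.05 to -0.07, with a fitted log2 ratio of -0.46 when each probe was tested on its own (adjusted p = 0.271 over all probes, limma). The other, A_15_P371715, was above 0 on 4 of 6 AgNO3 arrays, with a fitted log2 ratio of 0.14. Over the 11 arrays with both values, Pearson's r between the 2 probes was -0.21, and both share the annotation of the same transcript.

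The partner of the Stat proteins, irf9, had log2 ratios from -0.51 to 0.50 in AgNO3, with a median of 0.07. In AgNPs they were -0.50 and -0.71 on replicates 1 and 2 and between -0.08 and 0.01 on replicates 3 to 6. The low AgNPs values thus lay on the 2 arrays with the wider spread. They came mostly from different probes. A_15_P102474 was at -0.97 and -0.28 on replicates 1 and 2, and A_15_P736521 at -0.02 and -1.15. The irf9 value on AgNPs replicate 4 came from A_15_P736521 alone and was the median of all features there. On AgNPs replicate 3 this probe held the same value as an irf7 and a stat2 probe. Whether such repeated values measure irf9 is not known. When each irf9 probe was tested on its own, the unadjusted p-values in AgNPs were 0.243 and 0.0905 by limma. The fitted AgNPs log2 ratio was -0.23 (SE 0.09, interval -0.43 to -0.02), or 85.5% of the control signal, with an unadjusted p of 0.0368 and an adjusted p of 0.9999 by limma. In AgNO3 it was 0.03 (SE 0.09), and the difference AgNO3 minus AgNPs was 0.25 (interval -0.04 to 0.55), which changed sign to -0.066 with the dye-swapped arrays turned. The dye term of irf9 was -0.42 (SE 0.13), the only one of a tested member with an unadjusted limma p under 0.05. Both silver forms share this term, so opposite dye patterns in the 2 forms can cancel in it. For irf9, the AgNO3 means within the dye orientations were -0.21 (Cy5) and 0.27 (Cy3), opposite in sign, and the AgNPs means were -0.40 and -0.05.

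The log2 ratios of the amplifying factor irf7 in AgNO3 were -0.08, -0.70, -0.49, -0.48, 0.22 and -0.22 on replicates 1 to 6, below 0 on 5 of 6 arrays. In AgNPs they ran from -0.39 on replicate 1 to 0.09 on replicate 2, with a median of -0.05, and all 6 values lay within the AgNO3 range. The fitted log2 ratio was -0.29 in AgNO3 (SE 0.10, interval -0.52 to -0.06), or 81.6% of the control signal, with an unadjusted p of 0.0170 and an adjusted p of 0.529 by limma. In AgNPs it was -0.09 (SE 0.10), and the difference between the forms was -0.20 (interval -0.52 to 0.12). The 2 probes differed in AgNO3: A_15_P151821 had a fitted log2 ratio of -0.49 (adjusted p = 0.483 over all probes, limma) and A_15_P111261 one of -0.0022. The latter was also below 0 on 4 of its 5 AgNO3 arrays, from -0.39 to -0.13, and stood at 0.74 on replicate 5.

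**Figure D3:**
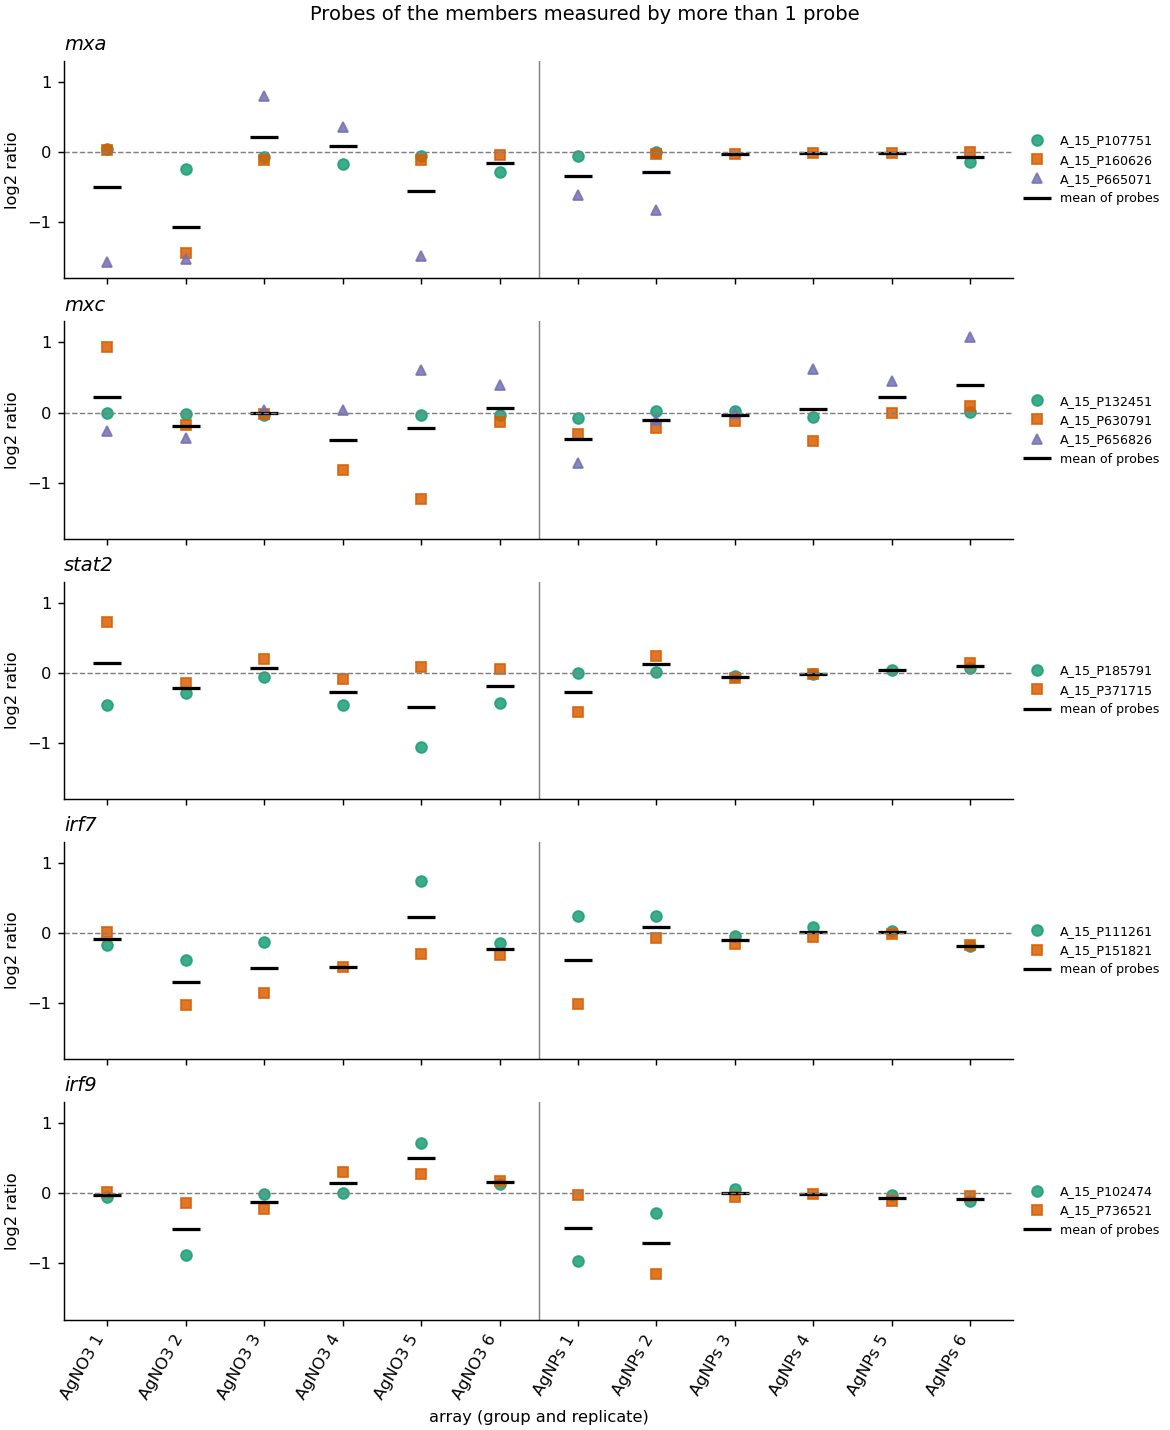
Log2 ratio (vertical axis) of each probe of the 5 tested members with more than 1 probe, on each of the 12 arrays (horizontal axis). Coloured symbols are probes, and the black dash is the mean used for the gene. The 2 stat2 probes lie on opposite sides of 0 on several AgNO3 arrays. The irf7 probe A_15_P151821 lies lower than the other on most arrays, but not on AgNO3 replicate 1 or AgNPs replicate 6.

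Among themselves the members did not move as 1 block. Across the 12 arrays, Pearson's r over the 21 pairs of tested members had a median of 0.133 and ran from -0.386 (stat2 with irf9) to 0.726 (mxc with stat2). All pairs share the arrays and their spread, so these are descriptions. Values more than 0.25 from 0 were 17 of 45 in AgNO3, 15 of them below 0. On AgNPs replicates 1 and 2 they were 9 of 16, 7 of them below 0, and on AgNPs replicates 3 to 6 they were 4 of 32, 3 of them above 0. The share of all features this far from 0 is not given, so these counts are not read as a result about the members. Over all features, the median absolute value was 0.10 to 0.15 on the AgNO3 arrays. It was 0.14 and 0.11 on AgNPs replicates 1 and 2 and 0.037 to 0.051 on replicates 3 to 6. Between probes of the same member, r ran from -0.21 (stat2) to 0.52 (2 probes of mxa), over 5 to 12 arrays.

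The mean profile of the 7 tested members over the 12 arrays was most like those of ucp3 (Pearson's r = 0.913), cul5a (0.912), dtx3 (0.895), cldn23.1 (0.879) and e2f4 (0.872), among 11938 named genes with all 12 values. These are the highest of 11938 correlations over 12 arrays, so values this high may come from the search alone. Whether these genes share regulation with the members was not tested. The likeness partly follows AgNPs replicate 3, the array of the high rsad2 value. Without it, r was 0.797 for ucp3 and 0.712 for e2f4, and 0.892, 0.866 and 0.830 for cul5a, dtx3 and cldn23.1.

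The rest of the pathway was read from lists of 148 further genes, of which 94 were tested. None passed the adjusted threshold in AgNO3, in AgNPs or in the difference (limma). At an unadjusted p under 0.05 there were 13 in AgNO3 (12 lower, 1 higher), 6 in AgNPs (5 lower, 1 higher) and 1 in the difference, where 8.25%, 4.24% and 4.22% of all features had such a p. Turning the dye-swapped arrays gave 7 in AgNO3 (3 lower, 4 higher), against 10.5% of all features, and 4 in AgNPs (1 lower, 3 higher), against 5.68%. The median fitted log2 ratio of the 94 was -0.05 in AgNO3 and -0.03 in AgNPs.

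At the top of the pathway, none of the 6 interferon genes tested had an unadjusted p under 0.05 in either silver form. Of all features, 8.25% in AgNO3 and 4.24% in AgNPs had such a p. The medians of the 6 genes were -0.06 in AgNO3 and -0.02 in AgNPs. The gene with the most uneven values, chosen after they were seen, was ifnphi4, a type I interferon: its AgNO3 log2 ratios were 1.49 on replicate 2 and 3.57 on replicate 4 but between -0.15 and 0.07 on the other 4 arrays. The fitted AgNO3 value was 0.81 (SE 0.42, adjusted p = 0.636 by limma), 0.23 without replicate 4, and -0.40 with the dye-swapped arrays turned. On replicate 2 the members with values ran from -1.07 (mxa) to 0.17 (rsad2), with irf7 at -0.70. On replicate 4 they ran from -0.72 (mxb) to 0.15 (irf9), with irf7 at -0.48, mxa at 0.09 and rsad2 at 0.10. A link between ifnphi4 and the members was not tested.

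Of all features, 8.25% had an unadjusted p under 0.05 in AgNO3 and 4.24% in AgNPs. Among the 8 receptor and kinase genes, 1 had such a p, the interferon gamma receptor gene ifngr1l in AgNPs. Its fitted log2 ratio there was -0.69 (SE 0.28, adjusted p = 0.9999 by limma), and it came from replicates 4 and 5, at -1.58 and -2.59, with the other 4 arrays between -0.03 and 0.06. Without replicate 5 it was -0.35. Among the 14 sensor and adaptor genes, 2 did so in AgNO3, both adaptors of Toll-like receptors. The log2 ratio of ticam1 was 0.35 (SE 0.11, above 0 on 5 of 6 arrays), and that of myd88 was -0.31 (SE 0.11, below 0 on 6 of 6). The myd88 value leaned on replicate 5, at -1.12, since the others lay between -0.17 and -0.12, and without replicate 5 it was -0.15. With the dye-swapped arrays turned, ifngr1l stood at 0.70 in AgNPs, and ticam1 and myd88 at -0.13 and 0.16 in AgNO3.

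Of the 14 other interferon regulatory factors and STATs tested, 1 had an unadjusted p under 0.05 in AgNO3, against 8.25% of all features. This was irf8, which in zebrafish directs macrophage development, with a fitted log2 ratio of -0.45 (SE 0.17, adjusted p = 0.543 by limma). Its AgNO3 values ran from -1.48 to 0.01 and were below 0 on 5 of 6 arrays, and without replicate 3 the fitted value was -0.29. Of 27 other interferon-induced genes tested, 3 had such a p in AgNO3, against 8.25% of all features, and 0 in AgNPs, against 4.24%. They were xaf1, a regulator of cell death, at -0.38 (SE 0.10, below 0 on 6 of 6 arrays), ifi35 at -0.38 (SE 0.12) and ifi27.1 at -0.45 (SE 0.18, and -0.27 without replicate 5). Their adjusted p-values by limma were 0.409, 0.488 and 0.564. Turned dye-swapped arrays put them at -0.02, 0.13 and 0.34. The relative mxd, chosen after its values were seen, was at -0.14 in AgNO3, or -0.016 without replicate 3, and at 0.01 in AgNPs. None of the 9 tested pathway brakes had an unadjusted p under 0.05, against 8.25% of all features in AgNO3 and 4.24% in AgNPs.

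The antigen-processing genes cut, load and carry peptides for display on the cell surface. Of 16 tested, 7 in AgNO3 had an unadjusted p under 0.05, all lower, against 8.25% of all features, and 5 in AgNPs, 4 lower and 1 higher, against 4.24%. Turning the dye-swapped arrays gave 2 in AgNO3, both higher, against 10.5% of all features, and 1 in AgNPs, lower, against 5.68%. How many genes had such a p, and their direction in AgNO3, thus rest on how those arrays are read. The list's median log2 ratio was -0.18 in AgNO3 and -0.07 in AgNPs, and 13 and 11 of its 16 members were below 0. Of all 25266 features, 13095 in AgNO3 and 12190 in AgNPs were below 0. With the dye-swapped arrays turned, the list's median was -0.04 in AgNO3 and -0.01 in AgNPs. None of the 16 genes passed after adjustment, and the comparisons share their control samples. The light chain gene b2m had a fitted log2 ratio of -0.41 in AgNO3 (SE 0.12, 5 of 6 arrays below 0, adjusted p = 0.424 by limma) and -0.35 in AgNPs (SE 0.12, 6 of 6, adjusted p = 0.947). The proteasome activator gene psme1 was at -0.38 in AgNO3 and -0.33 in AgNPs, below 0 on 6 of 6 arrays in each, and its partner psme2 was at -0.32 and -0.24. The values of tapbp.1, the tapasin gene that helps load peptides, were -0.30 in AgNO3 and -0.09 in AgNPs, and those of b2ml were -0.25 and -0.18. With the dye-swapped arrays turned, the sign changed for b2m, to 0.22 in AgNO3 and 0.13 in AgNPs, and for tapbp.1 in AgNO3, to 0.06. In AgNO3 psme1, psme2 and b2ml then stood at -0.19, -0.047 and -0.024, and in AgNPs at -0.20, -0.35 and -0.15.

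The invariant chain gene cd74a, which chaperones class II molecules, differed in sign between the forms. Its AgNO3 log2 ratios were below 0 on 5 of 6 arrays, from -0.84 to 0.06, and its AgNPs log2 ratios above 0 on 5 of 6, from -0.37 to 0.75. The fitted values were -0.36 in AgNO3 and 0.28 in AgNPs, and the difference was -0.64 (SE 0.17, interval -1.01 to -0.28, unadjusted p = 0.0027, adjusted p = 0.858 by limma). With the dye-swapped arrays turned, the AgNO3 value of cd74a was -0.14, the AgNPs value -0.28 and the difference 0.14.

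**Figure D4:**
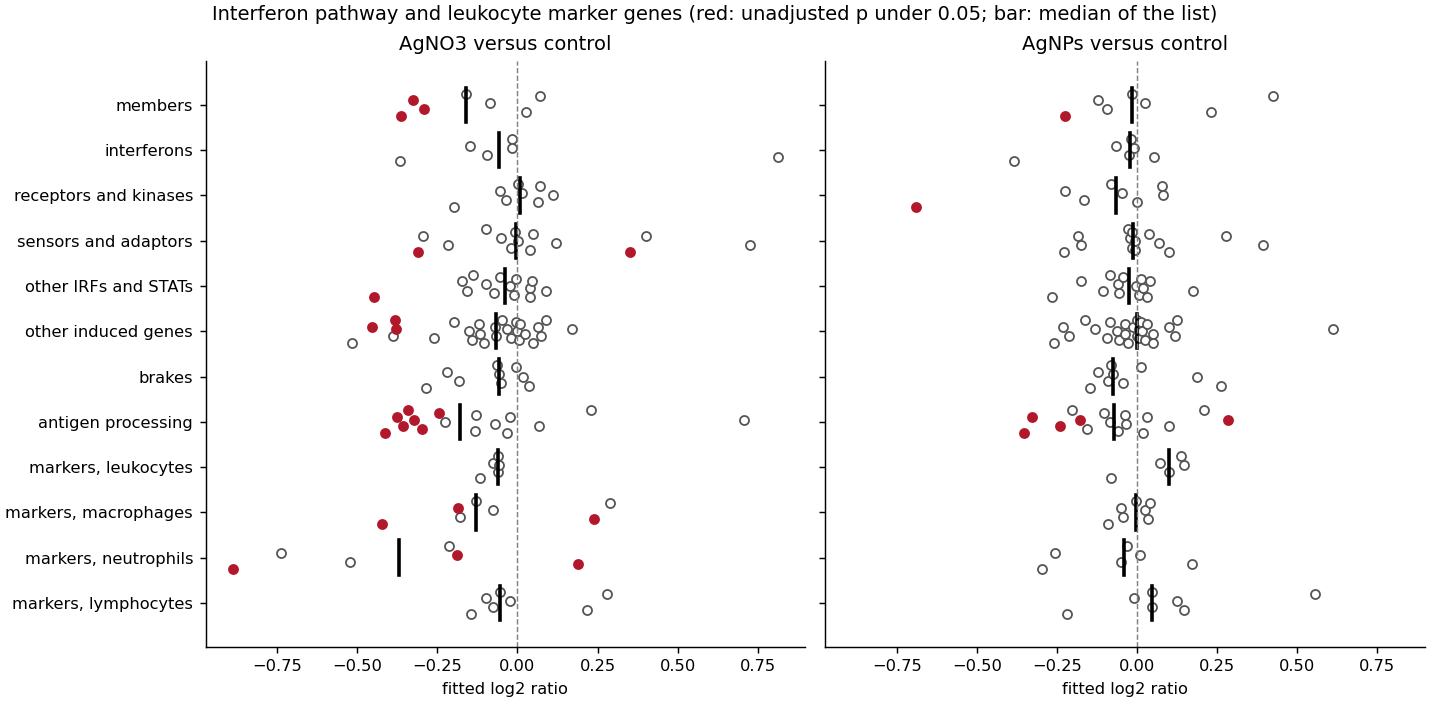
Fitted log2 ratios (horizontal axis) of the tested genes of each interferon pathway list and each leukocyte marker list (vertical axis), for AgNO3 at left and AgNPs at right. Each point is 1 gene, red where its unadjusted p was under 0.05, and the black bar is the median of the list. Antigen processing has 7 red points in AgNO3, all below 0; with the dye-swapped arrays turned it would have 2, both above 0.

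Leukocytes express many of these genes, so their markers are given beside the values. Of 25 tested markers, 20 had a fitted log2 ratio below 0 in AgNO3 and 11 in AgNPs, beside 13095 and 12190 of all 25266 features. The mean over the markers ran from -0.26 to 0.04 on the AgNO3 arrays and from -0.11 to 0.18 on the AgNPs arrays, with medians over arrays of -0.13 and 0.02. In AgNO3 the median of the fitted values was -0.06 for 5 general leukocyte markers and -0.13 for 7 macrophage markers. It was -0.37 for 6 genes listed under neutrophils and -0.05 for 7 lymphocyte markers. In AgNPs the corresponding medians were 0.10, -0.0033, -0.04 and 0.05. At an unadjusted p under 0.05, 4 markers were lower in AgNO3 (mpeg1.1, c1qc, mmp13a and il1b) and 2 higher (csf1ra and npsn), against 8.25% of all features. In AgNPs 0 of 25 had such a p, against 4.24%, and none passed after adjustment (limma). The neutrophil list (mpx, lyz, mmp9, mmp13a, npsn and il1b) held both mmp13a at -0.89 and npsn at 0.19 in AgNO3. How specific these genes are to neutrophils in whole larvae was not tested. Turning the dye-swapped arrays gave 3 markers in AgNO3 (2 lower, 1 higher), against 10.5%, and 0 in AgNPs, against 5.68%. The part of leukocytes in the values of the interferon response genes was not tested.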

How the data were processed

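The authors deposited, for each probe and array, a log ratio between the channels, which was treated as log2. Total RNA was purified with Trizol and dye-labelled with Cy3 or Cy5, per the labels' protocols. Not given in the sources used here were the scanner software, background correction, normalization, spot filter, log base and ratio direction. Values were used unchanged, including those that many features of an array held in common. Between 6.97% and 10.9% of values of an array were empty.

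Probes were named through the platform annotation: 24749 by accession, 4278 by current symbol, 1124 by synonym, with 35 old symbols kept and 13417 probes unnamed. Probes of a gene were averaged per array. A feature was tested with values on at least 2 of 3 arrays per dye orientation in each group. All 12 arrays entered 1 limma model (limma 3.58.1, R 4.3.3; tables with Python 3.11.15, pandas 2.3.3) with a mean per silver form and a dye term. Both silver forms shared 1 estimate of spread per feature. Signs below 0 mean lower in exposed larvae. The number of arrays limits the precision, and intensities were not used here.

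In 5 runs of simulated data for AgNO3 versus control over 25266 features, 42.8% of features shifted by 0.5 were called. The share was 76.8% for a shift of 1, 92% for 1.5 and 97.2% for 2, with 9.8 false calls per run. These shares hold for the simulated noise only. Measured AgNO3 arrays had interquartile ranges of 0.216 to 0.342, against 0.0946 to 0.116 on AgNPs replicates 3 to 6. A spread shared by both silver forms can understate the noise of the AgNO3 arrays, so the shares may be too high for them. Whether shifts of these sizes would be called on the measured arrays was not tested.

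Genes named were the members, up to 6 genes per pathway list and comparison with the lowest unadjusted p if under 0.05, and the 5 genes of most similar profile. Members and lists were chosen with earlier results of these data known. The 24 alternatives changed the probe averaging, the filter, the dye term, the array scaling and weights, the direction of swapped arrays, the blocks and the arrays left out. The number of columns of other samples was 0. Some items are not reported here.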

Additional observations from a re-analysis of the deposited data

Results flagged for a closer look

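In 47 groups of 5 or 6 arrays, 1 for each named gene and silver form, the highest or lowest array was compared with the rest by Dixon's criterion, and 11 had an array far from the others. Chance gives about 1 in 20 groups where arrays have equal spread, which AgNPs replicates 1 and 2 and replicates 3 to 6 did not. Genes chosen after their values were seen gave 4 of the 11, in 6 groups, and the other genes gave 7 in 41 groups.

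Among the members, mxb stood at -1.57 on AgNPs replicate 4, against -0.15 to 0.39 on the other arrays. The value of rsad2 was 2.85 on AgNPs replicate 3, against -0.11 to -0.01. Each of these 2 values was shared with other features of its array. Of the antigen-processing and adaptor genes, tapbp.1 was at -0.49 on AgNPs replicate 2, ticam1 at 0.36 on AgNPs replicate 3 and myd88 at -1.12 on AgNO3 replicate 5. Of the other induced genes, xaf1 was at -0.71 on AgNPs replicate 6 and ifi27.1 at -0.91 on AgNPs replicate 1. Of the genes chosen after their values were seen, ifnphi4 was at -0.59 on AgNPs replicate 6, mxd at -0.79 on AgNO3 replicate 3, and cmpk2 at 1.04 on AgNO3 replicate 6 (over 5 arrays) and 0.90 on AgNPs replicate 2.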

How the results depend on the processing

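Under all 24 alternatives, 0 of the 7 members and 0 of the wider genes were called in AgNO3, AgNPs or the difference; the smallest adjusted p of a member was 0.271 (stat2, single probes). Mean log ratios of mxa, isg15 and irf7 kept their sign throughout. Several alternatives could not change it: these genes have values on all 12 arrays. Leaving out the dye term or an array of the other silver form thus leaves their means as they were. With the dye-swapped arrays turned, isg15 stood at -0.01 in AgNO3. The count of all features called ran from 0 to 4 in AgNO3, 0 to 20 in AgNPs and 0 to 7 in the difference. The member median moved without AgNPs replicates 3 to 6, to -0.18 in AgNPs and 0.068 in the difference. Leaving out 1 array at a time gave medians of -0.22 to -0.10, -0.057 to 0.054 and -0.23 to -0.12, with 0 members called. With a replicate block, the members' log ratios were the same, as they must be with values on every array. Their median in AgNO3 was -0.16. Under that block 0 members were called, and 0 and 1 features in AgNO3 and AgNPs. Deviations of same-numbered arrays correlated at -0.147 to 0.0128, and those of arrays read as sharing a control sample at -0.0171 to 0.0694. With such low values for shared controls too, this check cannot tell whether the numbers pair the silver forms.

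Signs reversed as follows; the cause was not tested. With dye-swapped arrays turned, AgNO3 values became 0.10 (mxc), 0.15 (stat2), -0.24 (irf9), -0.13 (ticam1), 0.16 (myd88), 0.13 (ifi35), 0.34 (ifi27.1), 0.065 (tapbp.1), 0.22 (b2m), -0.40 (ifnphi4) and -0.21 (cmpk2). AgNPs values became -0.20 (mxc), 0.70 (ifngr1l), 0.13 (b2m), -0.28 (cd74a) and 0.14 (ifnphi4). Differences became 0.29 (mxc), 0.21 (stat2), -0.066 (irf9), 0.14 (cd74a), -0.54 (ifnphi4) and -0.34 (cmpk2). In AgNPs, stat2 was 0.00555 with a common spread and 0.022 with array weights, mxc was -0.027 with the median of probes and mxd -0.0083 with array weights. Without AgNPs replicates 3 to 6, AgNPs values were -0.33 (mxc), -0.091 (rsad2) and 0.50 (ifnphi4), and differences 0.25 (mxc), 0.16 (rsad2), 0.068 (stat2) and -0.46 (cmpk2). Leaving out 1 array at a time turned irf9 in AgNO3 (range -0.031 to 0.10), cmpk2 in AgNO3 (-0.042 to 0.29), and in AgNPs mxc (-0.045 to 0.10), rsad2 (-0.057 to 0.60), stat2 (-0.052 to 0.054), ifnphi4 (-0.15 to 0.080), mxd (-0.011 to 0.037) and cmpk2 (-0.053 to 0.18). It turned the differences of rsad2 (-0.53 to 0.13, positive without AgNPs replicate 3) and cmpk2 (-0.17 to 0.20).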
